A study of Mus musculus with 8 samples.

Results

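Gene expression of the mitochondrial respiratory chain and ATP synthase was followed in 4 wild-type and 4 AE3-null hearts by RNA-seq. All mice were males of the inbred strain FVB/N aged 4 months, total RNA of the heart was sequenced, and the labels name no treatment. AE3-null mice lack AE3, the chloride/bicarbonate exchanger that Slc4a3 encodes, and the labels name no Cre, promoter or tissue restriction of that null allele. The genes described are the protein-coding rows of the count table whose symbols start with Nduf, Uqcr, Cox4 to Cox8 or Atp5, together with Sdha, Sdhb, Sdhc, Sdhd and Cyc1. This rule gave 94 of 23282 rows, and it used no measured value. There were 7 core subunits, 29 accessory subunits and 8 assembly factors of complex I, 4 subunits of complex II, 9 of complex III, 20 of complex IV and 17 of ATP synthase (complex V). Some names follow older usage: Ndufa4 and Ndufa4l2 are counted with complex IV, to which the Ndufa4 protein belongs.

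Complex I passes electrons from NADH, and complex II from succinate, to ubiquinone. Complex III hands them on through cytochrome c to complex IV, which reduces oxygen, while complexes I, III and IV pump the protons that drive ATP synthase. Heart muscle depends on this pathway for nearly all of its ATP, and several complex IV subunits exist in a heart and skeletal muscle form and in a widely expressed form called the liver form. A further set of subunits is encoded by mitochondrial DNA, and those genes are not analysed here.

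Because the reads of paired genes have to be told apart before their levels can be compared, stretches of the heart and liver forms are shown first. Each is 60 bases of coding sequence from GENCODE M21 on build GRCm38, read 5′ to 3′ along the gene, with capitals at the bases that differ within a pair. The Cox6a2 stretch lies at chr7:128205753-128205812 (minus strand) and that of Cox6a1 at chr5:115345867-115345926 (minus strand).
Cox6a2: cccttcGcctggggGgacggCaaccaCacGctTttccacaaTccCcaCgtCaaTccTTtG
Cox6a1: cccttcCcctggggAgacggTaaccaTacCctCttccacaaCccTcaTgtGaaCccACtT
The Cox7a1 stretch lies at chr7:30185112-30185171 (plus strand) and that of Cox7a2 at chr9:79758490-79758549 (minus strand).
Cox7a1: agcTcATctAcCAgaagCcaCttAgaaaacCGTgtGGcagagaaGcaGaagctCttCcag
Cox7a2: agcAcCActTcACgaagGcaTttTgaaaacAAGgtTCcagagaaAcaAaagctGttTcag
The Cox8b stretch lies at chr7:140899003-140899062 (minus strand) and that of Cox8a at chr19:7215398-7215457 (minus strand).
Cox8b: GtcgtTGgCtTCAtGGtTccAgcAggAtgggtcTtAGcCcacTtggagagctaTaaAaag
Cox8a: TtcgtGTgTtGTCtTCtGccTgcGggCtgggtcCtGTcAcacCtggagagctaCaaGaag
Within these 60 bases the pairs differed at 14, 18 and 20 positions. Over the aligned coding sequence the forms were 66.6%, 64.2% and 57.6% identical, and the longest identical run was 12, 12 and 10 bases.

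The opposite case is Ndufs5, whose processed pseudogene Ndufs5-ps has a row of its own in the table. The Ndufs5 stretch lies at chr4:123715975-123716034 (minus strand) and that of the pseudogene at chr16:42955676-42955735 (plus strand), on the same build.
Ndufs5: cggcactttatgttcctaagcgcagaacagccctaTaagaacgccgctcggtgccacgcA
Ndufs5-ps: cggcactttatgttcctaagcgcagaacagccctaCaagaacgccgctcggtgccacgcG
The 2 capitals mark the only differences in 318 coding bases, and the longest identical run was 213 bases. Of the 94 genes, 36 shared a coding run of at least 50 bases with a transcript of another gene, 35 of them with a pseudogene. How the counting program treated such reads is not stated in the sources used here, so counts of those genes are uncertain by the reads that could be placed at more than 1 site. Ndufv3, Ndufs7, Ndufs8 and Sdhd, on which the results below turn, shared no such run. Of 92 genes found in GENCODE, 28 shared exon bases with a gene on the opposite strand, and these 4 were not among them.

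The libraries held 9133628 to 27078351 counts. A level in CPM is a gene's read count after every library is brought to the same total with TMM factors, and errors are SD over 4 libraries. Slc4a3 checked the genotype labels: it lay at 378 to 389 CPM in the wild-type libraries and at 31.5 to 34.6 CPM in the AE3-null libraries (log2 fold change -3.54, SE 0.040, edgeR adjusted p 2.83e-19). The hearts carried ventricular muscle markers at a summed 84719 to 91962 CPM in wild type and 84375 to 91269.6 CPM in AE3-null. Apart from the number of mice per genotype, nothing ties a library to an animal, and every p-value reflects only the variation among these 8 libraries.

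In AE3-null hearts the nuclear-encoded respiratory chain stayed close to its wild-type level. Ndufv3 alone passed the edgeR test, near its threshold, with a small decrease that Ndufs5 and Ndufaf2, which did not pass, exceeded. Of the 94 genes, 92 had enough reads to be tested, and 1 of them was called at an adjusted p under 0.05 (edgeR quasi-likelihood test, Benjamini-Hochberg over 14136 genes), against 6.47% of all tested genes. With DESeq2 the calls were 2, Ndufv3 lower and Sdhd higher, and with limma voom 1. At an unadjusted p under 0.05 there were 8 of the 92 genes (8.70%), beside 21.0% of all tested genes. The 6 lower ones, Ndufv3, Ndufs8, Ndufs7, Ndufs5, Ndufa10 and Ndufc1, are all among the 36 core and accessory subunits of complex I. The 2 higher ones were Sdhd of complex II and Cox6a1, the liver form of complex IV subunit 6A. Of all tested genes, 11.2% were lower at such a p, and an excess in complex I was not tested. Ndufa10 and Ndufc1 are named after their values were seen.

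The median log2 fold change over the 92 genes was -0.0067, beside -0.0018 over all tested genes, a value that TMM scaling holds near 0. For 90 of the 92 (97.8%) the 95% interval of the fold change lay within 0.32 log2 units of 0 in either direction. The 2 exceptions were Ndufaf2 and Cox6b2. Such an interval was found for 60.7% of all tested genes, which were not matched for level. The genotypes did not overlap in 6 genes (6.52%), with 5 lower and 1 higher, against 12.2% of all tested genes. Fold changes ran from -0.20 for Ndufaf2 to 0.58 for Cox6b2 on the log2 scale. Of the 92, 89 lay within 1.1-fold, Ndufv3 among them.

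**Figure D1:**
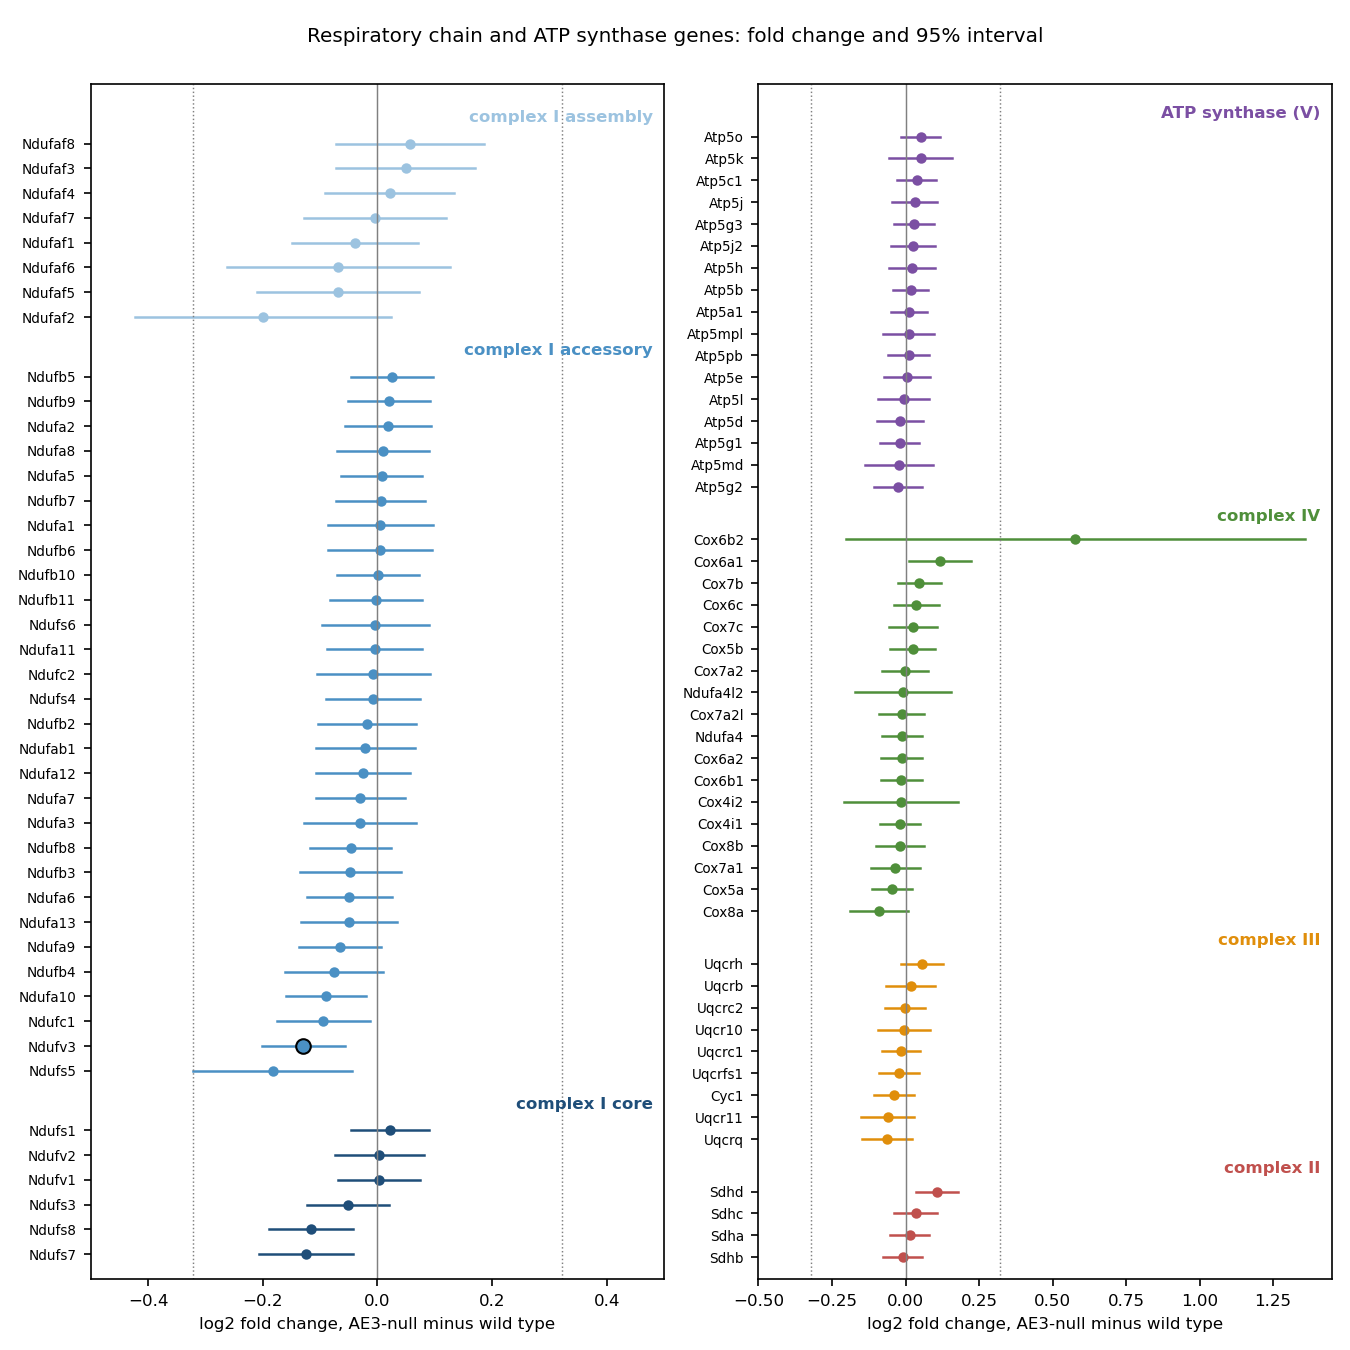
Log2 fold change (AE3-null minus wild type, x axis) of 91 of the tested genes, 1 row each, grouped by complex, with 95% intervals as lines and dotted lines at 0.32 log2 units on either side. The 2 panels have different x scales; the black-ringed point is Ndufv3, the called gene, at -0.13.

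The genes took a steady part of all reads. They held 4.21% ± 0.0855 (SD, n = 4) of the counts in wild-type libraries and 4.26% ± 0.0649 (SD, n = 4) in AE3-null libraries. ATP synthase genes alone took 1.73% ± 0.0356 and 1.77% ± 0.0290 (SD, n = 4 each). Replicates of 1 genotype also agreed more closely here than for other genes. The median SD of log2 CPM within a genotype was 0.047 for the 92 genes and 0.072 for 7573 other genes in the same range of levels. That range ran from the 5th to the 95th percentile of the 92 genes. Levels within it were not matched, and the part of level in the difference was not tested.

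Complex I takes in electrons from NADH on a peripheral arm built on the core subunits. Of its 36 core and accessory subunits, 12 had fold changes above 0 and 24 below, with a median log2 of -0.02. This tally turned on the scaling and on single libraries: it became 18 above and 18 below with total counts only or without wild-type replicate 3, and 19 above and 17 below without AE3-null replicate 3. With total counts only, the median log2 was -0.00011 for these subunits and 0.018 for all tested genes. In the main fit they were -0.02 and -0.0018, so 0 was not the same baseline in both. The tally therefore gives no direction for the complex.

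Ndufv3 (Entrez 78330, chromosome 17), an accessory subunit of the NADH-oxidising tip of complex I, was measured at 214, 224, 224 and 212 CPM in wild-type libraries 1 to 4. The AE3-null libraries held 204, 198, 199 and 198 CPM. Every AE3-null library lay below every wild-type library. Ndufv3 fell by 0.13 on the log2 scale (SE 0.035, 95% interval -0.20 to -0.06, edgeR adjusted p 0.0343). The gene is known to give rise to a long and a short splice form that differ between tissues, and counts per gene do not separate them. The call was near its threshold: leaving out 1 library at a time, the adjusted p stayed under 0.05 only without wild-type replicate 3 and was 0.0554 to 0.102 in the other 7 fits, while the log2 value stayed between -0.14 and -0.11. It was also lost with total counts only (adjusted p 0.0780).

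Ndufs7 and Ndufs8, core subunits that carry iron-sulfur clusters on the path to ubiquinone, came next among the lower genes. Ndufs8 (Entrez 225887) was at 192, 191, 198 and 189.6 CPM in wild type and at 179.8, 174, 174 and 183 CPM in AE3-null, with no overlap. Its log2 fold change was -0.12 (SE 0.035, 95% interval -0.19 to -0.04), and its edgeR adjusted p of 0.0572 missed the threshold. Ndufs7 (Entrez 75406) was at 341, 357, 339 and 361 CPM in wild type and at 323, 302, 319 and 337 CPM in AE3-null. The highest AE3-null library lay just under the lowest wild-type library. Its log2 difference was -0.12 (SE 0.039, 95% interval -0.21 to -0.04, edgeR adjusted p 0.0661), and it was called without wild-type replicate 3 (adjusted p 0.0322).

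Other core subunits were nearer to 0. Ndufv1 and Ndufv2, partners of Ndufv3 at the tip, had log2 fold changes of 0.0021 and 0.0034, and Ndufs1, the largest core subunit, 0.02. Among the accessory subunits, Ndufa10 lay at 445 to 459 CPM in wild type and 410.3 to 436 CPM in AE3-null (log2 -0.09, edgeR adjusted p 0.115). Ndufc1 lay at 103 to 108 CPM in wild type and 94.8 to 102 CPM in AE3-null (log2 -0.09, edgeR adjusted p 0.162). Both showed no overlap between genotypes without passing the test. Ndufb9, with the most reads among accessory subunits, averaged 490.4 ± 10.8 and 497 ± 14.8 CPM (SD, n = 4 each).

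Ndufs5 had the lowest fold change of the accessory subunits. It was at 91.7, 89.2, 75.6 and 76.9 CPM in wild type and at 76.2, 74.1, 67.7 and 75.5 CPM in AE3-null. Wild-type replicates 1 and 2 were high, and replicate 3 overlapped the AE3-null libraries. Its log2 value for AE3-null minus wild type was -0.18 (SE 0.064, 95% interval -0.32 to -0.04, edgeR adjusted p 0.113). Without wild-type replicate 3 it was -0.22 and called (edgeR adjusted p 0.0243). Its pseudogene, shown above, drew 2.88 to 3.001 counts for each Ndufs5 count in the 8 libraries and had a log2 fold change of -0.15 (edgeR adjusted p 0.162). With the counts of both summed, a step chosen after seeing the data, the difference was -0.16 on the log2 scale (SE 0.061, edgeR adjusted p 0.157). The ratio between the 2 rows varied little over the libraries.

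**Figure D2:**
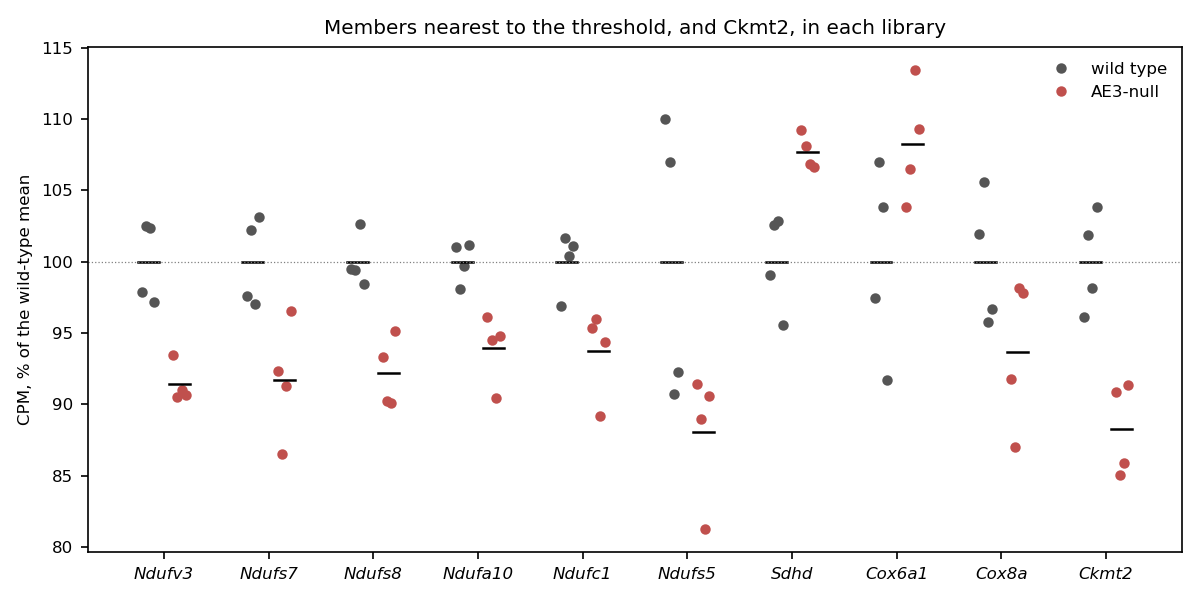
CPM of 9 respiratory chain genes and of Ckmt2 in each library, as percent of the wild-type mean of that gene (y axis, which does not start at 0), with bars at the genotype means. Ndufv3, Ndufs7, Ndufs8, Ndufa10, Ndufc1 and Ckmt2 have all AE3-null points below all wild-type points, Sdhd has them all above, and Ndufs5, Cox6a1 and Cox8a overlap.

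Complex I assembly factors, which build the complex and leave it, were expressed far below its subunits. Per kilobase of transcript their median level was 15.6 CPM, beside 314 CPM for core and 265 CPM for accessory subunits (means over 8 libraries). None of the 8 was called by edgeR, DESeq2 or limma voom, and none had an unadjusted p under 0.05. Ndufaf2, which acts late in assembly, was at 9.82, 11.4, 13.1 and 11.8 CPM in wild type and 10.7, 10.8, 8.16 and 10.5 CPM in AE3-null. Its log2 fold change was -0.20 with a 95% interval of -0.42 to 0.02, and the genotypes overlapped. Ndufaf5 had a log2 fold change of -0.07 (95% interval -0.21 to 0.07). Ndufaf4, with the most reads of the group, averaged 66.4 ± 4.94 and 67.4 ± 2.72 CPM (SD, n = 4 each).

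Complex II oxidises succinate and is also an enzyme of the citrate cycle. Its membrane anchor subunit Sdhd (Entrez 66925), which binds ubiquinone together with Sdhc, was at 389.6, 403, 405 and 376 CPM in wild type. In AE3-null it was at 429.8, 425, 420.3 and 419.7 CPM. All AE3-null libraries lay above all wild-type libraries. The difference was 0.11 on the log2 scale (SE 0.034, 95% interval 0.04 to 0.18), and the edgeR adjusted p was 0.0702. It passed the threshold with DESeq2 (adjusted p 0.0480) and with total counts only in edgeR (adjusted p 0.0417), and without wild-type replicate 3 (0.0272). The other anchor Sdhc had a log2 fold change of 0.03 (95% interval -0.04 to 0.11). The catalytic subunit Sdha averaged 1434 ± 33.3 and 1447 ± 24.2 CPM (SD, n = 4 each), and the iron-sulfur subunit Sdhb 784 ± 10.8 and 779 ± 19.8 CPM (SD, n = 4 each).

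None of the 9 complex III genes was called by edgeR, DESeq2 or limma voom, and none had an unadjusted p under 0.05. Fold changes ran from -0.06 to 0.06 on the log2 scale, with 2 above 0 and 7 below. With total counts only this tally became 5 above and 4 below, while the median over all tested genes was 0.018. Uqcrh, the hinge subunit that helps cytochrome c dock, was at 311 to 322 CPM in wild type and 319 to 342 CPM in AE3-null (log2 0.06, edgeR adjusted p 0.374). Uqcrq, a small subunit near the cytochrome b core, was at 317 to 337 CPM and 296 to 329 CPM (log2 -0.06, edgeR adjusted p 0.392). Uqcrc1, a large core subunit on the matrix side, averaged 1322 ± 22.5 and 1307 ± 25.9 CPM (SD, n = 4 each). Cyc1, which carries the cytochrome c1 haem, averaged 850.4 ± 9.36 and 827 ± 25.4 CPM (SD, n = 4 each).

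Complex IV was represented by 20 genes, of which 18 could be tested. None was called by edgeR, DESeq2 or limma voom, and Cox6a1 had an unadjusted p under 0.05. Cox8c, a testis form, had no count in any library, which allows up to 0.111 to 0.323 CPM depending on the depth. Cox7b2, another testis form, had 31 counts in all. The common form Cox4i1, a subunit through which ATP is known to slow the enzyme, had the most reads of complex IV and averaged 1374 ± 21.9 and 1356 ± 43.2 CPM (SD, n = 4 each).

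The heart forms of subunits 6A, 7A and 8 dominated in both genotypes. Cox6a2 held 92.3% to 93.6% of the Cox6a2 and Cox6a1 counts, Cox7a1 held 69.5% to 72.4% of its pair, and Cox8b held 77.5% to 80.4%. Per kilobase of transcript, Cox6a2 was 10.04 to 12.2 times Cox6a1, Cox7a1 was 3.10 to 3.57 times Cox7a2, and Cox8b was 5.26 to 6.26 times Cox8a. Per kilobase of coding sequence the ranges were 13.8 to 16.8, 2.13 to 2.45 and 3.39 to 4.04. The rare forms of other pairs were at low levels beside their partners. Cox4i2, the lung and hypoxia form, held 0.496% to 0.594% of its pair in wild type, and Ndufa4l2, known as a hypoxia-induced relative of Ndufa4, held 2.94% to 3.48%.

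The log2 ratio of each heart form to its liver form was compared between genotypes by a two-sided exact permutation test over the 8 libraries. The smallest p that 70 regroupings allow is 0.0286, and p-values were adjusted over 8 pairs. For subunit 6A the log2 ratio was 3.78, 3.72, 3.73 and 3.86 in wild type and 3.75, 3.65, 3.58 and 3.58 in AE3-null. The genotypes overlapped, and the mean difference of -0.13 had an exact p of 0.0857 (adjusted 0.229). Of the 2 forms, Cox6a1 had a log2 fold change of 0.12 (SE 0.050, edgeR adjusted p 0.191) and Cox6a2 had one of -0.01 (SE 0.033). Cox6a1 shares a run of 106 of its 336 coding bases with a pseudogene, so its counts are among the uncertain ones. It was at 73.5, 80.7, 78.3 and 69.2 CPM in wild type and at 78.3, 80.4, 85.6 and 82.5 CPM in AE3-null.

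For subunit 7A the log2 ratio was 1.32, 1.31, 1.37 and 1.31 in wild type and 1.39, 1.29, 1.31 and 1.19 in AE3-null. The mean difference of -0.03 had an exact p of 0.543. For subunit 8 it was 1.81, 1.78, 1.96 and 1.85 in wild type and 2.03, 1.99, 1.87 and 1.804 in AE3-null, a mean difference of 0.07 with an exact p of 0.257. The liver form Cox8a had a log2 fold change of -0.09 (95% interval -0.19 to 0.01). The 3 heart forms had log2 fold changes of -0.01, -0.03 and -0.02, each with a 95% interval that held 0, and the bounds reached from -0.12 to 0.06. Those signs turned positive for Cox6a2 and Cox8b with total counts only, where the median over all tested genes was 0.018.

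**Figure D3:**
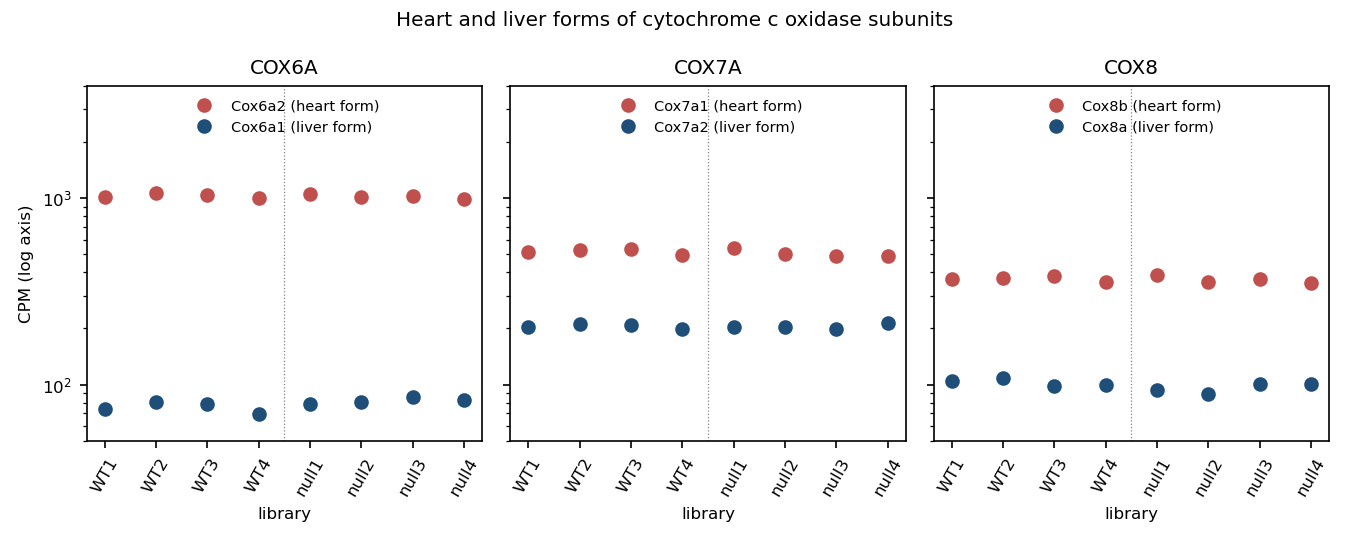
CPM (y axis, log scale) of the heart form (red) and the liver form (blue) of complex IV subunits 6A, 7A and 8 in each of the 8 libraries (x axis). The heart form lies above the liver form in every library, with Cox6a2 holding 92.3% to 93.6% of its pair.

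The remaining pairs gave log2 ratio differences of 0.01 for Cox4i2 to Cox4i1 (exact p 0.83), 0.58 for Cox6b2 to Cox6b1 (exact p 0.257) and 0.00086 for Ndufa4l2 to Ndufa4 (exact p 1). Cox6b2, the testis form of subunit 6B, was read at 0.379 to 1.51 CPM, so its ratio rests on few counts.

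ATP synthase makes ATP in a rotary head whose catalytic and non-catalytic subunits are Atp5b and Atp5a1. Per kilobase of transcript these were at 2831 and 2164 CPM, above every other member. Per kilobase of coding sequence Cox6a2, at 3521 CPM, was above Atp5b, at 3418 CPM. None of the 17 genes was called by edgeR, DESeq2 or limma voom, and none had an unadjusted p under 0.05. Fold changes were above 0 in 12 and below in 5, with a median log2 of 0.01. The 95% intervals of all 17 lay within 0.32 log2 units of 0. Atp5b was at 5402, 5338, 5413 and 5412 CPM in wild type and 5609.6, 5404, 5347 and 5465 CPM in AE3-null, and the genotypes overlapped (log2 0.02, 95% interval -0.04 to 0.08). Atp5o, the stalk subunit at the top of the head, had a log2 fold change of 0.05 (95% interval -0.02 to 0.12), and Atp5c1, the central rotor shaft, one of 0.04 (95% interval -0.03 to 0.10).

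Subunit c of the proton-driven ring is encoded by Atp5g1, Atp5g2 and Atp5g3, which give the same mature protein from different precursors. Atp5g3 was the most abundant at 1933 CPM per kilobase of transcript, beside 1218 for Atp5g1 and 393 for Atp5g2. All 438 coding bases of Atp5g2 also occur in pseudogenes, and Atp5g1 shares a run of 384 of its 408 coding bases with 1, so the levels and ratios of these genes are uncertain by such reads. The log2 ratio of Atp5g2 to Atp5g3 was -2.96, -2.99, -2.95 and -2.96 in wild type and -2.99, -3.03, -3.02 and -3.04 in AE3-null. The genotypes did not overlap, by a margin only visible in the third decimal (-2.991 and -2.995). The difference of -0.05 had the smallest exact p the design allows, 0.0286, and 0.229 after adjustment over 8 pairs. For Atp5g1 to Atp5g3 the difference was -0.05 with an exact p of 0.0571 (adjusted 0.229).

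**Figure D4:**
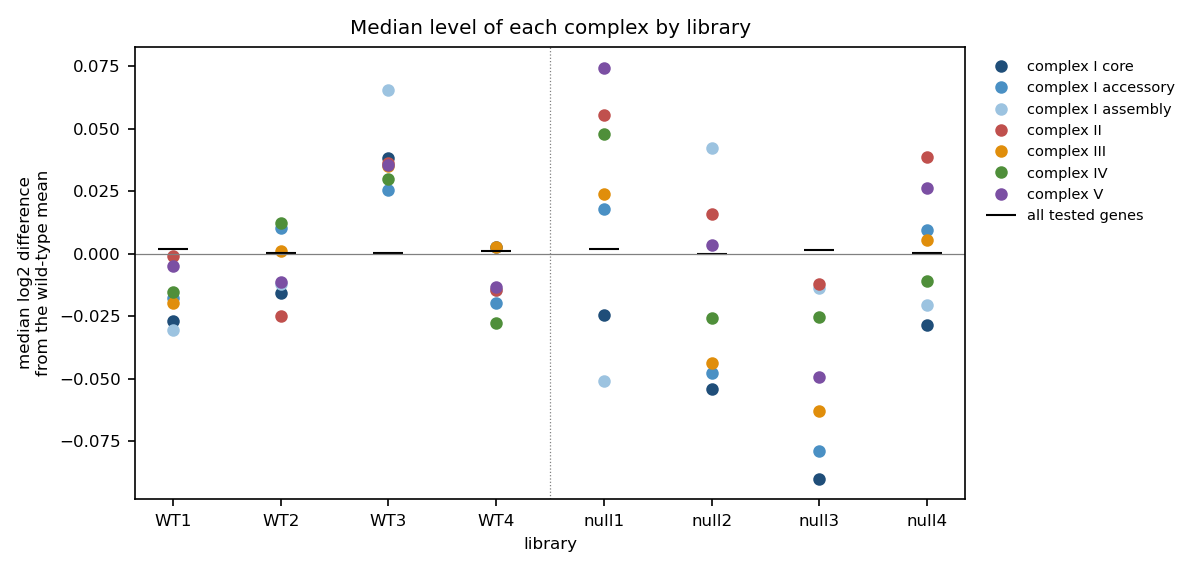
Median log2 difference from the wild-type mean over the genes of each complex (y axis) in each library (x axis), with black bars for all tested genes. TMM scaling holds those bars near 0. Every complex lies above 0 in wild-type replicate 3 and below 0 in AE3-null replicate 3, where the median over all 92 genes is -0.05.

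Libraries of 1 genotype differed from each other across the complexes. Over all 92 genes the median log2 difference from the wild-type mean was 0.03 in wild-type replicate 3 and in AE3-null replicate 1. It was -0.05 in AE3-null replicate 3 and -0.02 in AE3-null replicate 2. Across all tested genes the medians lay within 0.0021 of 0 in every library. TMM scaling holds those medians near 0, so they do not show that the shifts are particular to these genes.

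Promoters were searched for motifs known from genes of this pathway, since a regulator that acts on many subunits is a textbook feature of nuclear respiratory genes. RefSeq promoters of build GRCm38.p6, from 250 bases before to 50 after the start, were matched for 76 of the genes. The NRF1 motif GCATGCGC, searched on both strands, was found in 12 of them (15.8%) and in 3.94% of 17492 protein-coding genes with a promoter. A gene counted when any of its promoters matched, and the number of promoters per gene was not compared. The YY1 motif AAGATGGC was found in 11 (14.5%) against 3.57%, and the ETS motif of GABPA, CCGGAAGT, in 5 (6.58%) against 5.69%, both on both strands. The motif of oestrogen-related receptors, TCAAGGTCA on both strands, was found in 2 (2.63%) against 0.377%, and a TATA box, TATAAA on the gene strand, in 3 (3.95%) against 9.82%. These are letter matches, not binding sites. Stretches of 40 bases from 4 of the promoters show the NRF1 letters in capitals, at chr5:115349095-115349134 (minus strand) for Cox6a1, chr4:140961201-140961240 (plus strand) for Sdhb, chr15:82354351-82354390 (minus strand) for Ndufa6 and chr15:102671064-102671103 (minus strand) for Atp5g2.
Cox6a1: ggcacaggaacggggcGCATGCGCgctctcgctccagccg
Sdhb: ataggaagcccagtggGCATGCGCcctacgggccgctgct
Ndufa6: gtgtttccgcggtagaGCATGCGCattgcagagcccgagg
Atp5g2: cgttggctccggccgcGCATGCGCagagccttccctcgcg
They were chosen from different complexes and lie wholly before the start. None of the 4 genes was called, and Nrf1 itself had a log2 fold change of -0.01 (95% interval -0.16 to 0.14).

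Beyond the subunits, 1 gene of the same energy pathway passed the test. Ckmt2, the mitochondrial creatine kinase of heart and skeletal muscle, which passes energy from ATP to creatine beside the adenine nucleotide carrier, was at 2266, 2401, 2314 and 2448 CPM in wild type. In AE3-null it was at 2142, 2004, 2025 and 2153 CPM, below every wild-type library. Ckmt2 fell by 0.18 on the log2 scale (SE 0.036, 95% interval -0.25 to -0.10, edgeR adjusted p 0.00637). It belongs to a list of 21 carriers, quinone enzymes and cytochrome c genes with 1 call lower and none higher, and a median log2 of 0.0035. Over all tested genes, 6.47% were called in either direction. The adenine nucleotide carrier of heart, Slc25a4, averaged 4283 ± 107 and 4362 ± 64.6 CPM (SD, n = 4 each), and cytochrome c, Cycs, 421 ± 14.7 and 422 ± 13.6 CPM (SD, n = 4 each).

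Assembly factors outside the name rule gave no call with edgeR. The counts at an unadjusted p under 0.05, which 21.0% of all tested genes reached, were 1 of 10 for complex I, 0 of 4 for complex II, 0 of 6 for complex III, 4 of 25 for complex IV (Cox19 and Pet100 lower, Surf1 and Cox20 higher) and 1 of 4 for ATP synthase assembly and inhibition. DESeq2 called none of them, and limma voom called 1 complex IV factor, Cox19, lower. Of 14 citrate cycle genes edgeR, DESeq2 and limma voom called none, with 1 at an unadjusted p under 0.05 and a median log2 of -0.0021.

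Some cell type markers of the heart differed between the genotypes. Of all tested genes, 6.47% were called by edgeR in either direction and 21.0% had an unadjusted p under 0.05. Of 9 atrial markers, 8 were called higher, and their summed level was 3107 to 3676 CPM in wild type and 4122 to 4718 CPM in AE3-null. Of 12 endothelial markers, 5 (Pecam1, Esam, Eng, Kdr and Flt1) were called lower (1801 to 1969 CPM against 1579 to 1660.3 CPM). Red blood cell markers summed to 4059 to 6474 CPM against 2818 to 3928 CPM, with none of 5 called by edgeR, 4 at an unadjusted p under 0.05 and 4 called by DESeq2. The rows of Hba-a1 and Hba-a2, near-identical genes, held the same values, and both enter that sum and those counts of red blood cell markers. Fibroblast markers had 3 of 10 called lower (Pi16, Dpt and Mfap5), with sums of 1866 to 2153 CPM against 1958 to 2041 CPM. They went both ways: 4 of the 10 had fold changes above 0, and DESeq2 and limma voom each called 1 higher. Smooth muscle and pericyte markers had 2 of 9 called higher (Myh11 and Abcc9), with sums of 1361 to 1417 CPM against 1466 to 1572 CPM. Skeletal muscle markers had 2 of 6 called lower (Myl1 and Acta1), with sums of 2897 to 3532 CPM against 2414 to 2595 CPM, and 1 of 8 ventricular markers, Tnnt2, was called higher. Macrophage markers (8 tested, summing to 313 to 366 CPM against 312 to 362 CPM) and adipocyte markers (6 tested) had no call with edgeR. At an unadjusted p under 0.05 there were 1 and 0, and DESeq2 called 1 (Cx3cr1, higher) and 0. No marker with a row in the data, tested or not, was at 0 in all libraries. Their part in the values of Ndufv3, Sdhd and Ckmt2 was not tested, and in whole-heart RNA fewer cells of a type and less RNA per cell cannot be told apart. Slc4a3 lies on chromosome 1 with 6 of the respiratory chain genes, of which none was called and Ndufa10 did not overlap between genotypes.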

How the data were processed

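RNA-seq read counts per gene for 4 wild-type and 4 AE3-null libraries were used as deposited by the authors, not normalized. The submitters' processing notes name bcl2fastq, CASAVA 1.8, the TopHat aligner, genome build mm9 and DESeq. Counting software, gene annotation and strandedness are not stated in the sources used here. Entrez numbers were matched to symbols in a RefSeq table of assembly GRCm38.p6 (23185 of 23282 rows, 97 unmatched). RefSeq served for names, gene type (protein-coding or not), chromosome and promoters. Coding sequences and lengths came from GENCODE M21, also on GRCm38 and not the build of the counts.

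Genes were kept with edgeR's filterByExpr (minimum count 10), scaled by TMM and tested by the robust quasi-likelihood method of edgeR, without covariates. Adjusted p-values are Benjamini-Hochberg over all 14136 genes, and genes under 0.05 are called. The 95% intervals were computed from each fold change with its F statistic. Isoform ratios used a pseudocount of 0.5 counts. The steps were tested on simulated data. No pair of libraries was a copy, with a chi-square of 2.51 to 7.40 per gene.

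The genes, 8 pathway lists and 9 marker lists were chosen with earlier results of these data known. The text names members of isoform pairs, in each complex group the 2 genes with the smallest p and that with the most reads, called genes, and up to 3 called genes of a pathway list. Others were named after their values were seen, and 1 gene is counted but not reported here by name. Alternatives were RLE or total-count scaling, no filter or at least 50 counts in 4 libraries, DESeq2, limma voom, an adjusted p under 0.1, a pseudocount of 5, omission of single libraries, and a block for replicate number. The software used was DESeq2 1.42.0, edgeR 4.0.16 and limma 3.58.1 in R 4.3.3.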

Additional observations from a re-analysis of the deposited data

Results flagged for a closer look

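In 86 groups of 4 libraries examined, 4 held a library that stood far from the other 3, and chance alone gives about 1 in 20. Atp5g3 was at 1412 CPM in wild-type replicate 3, where the others lay at 1350.4 to 1354 CPM. Ndufaf2 was at 8.16 CPM in AE3-null replicate 3, below the others at 10.5 to 10.8 CPM. Uqcrc1 was at 1289 CPM in wild-type replicate 2, below the others at 1330.1 to 1337 CPM. Atp5b was at 5338 CPM in wild-type replicate 2, below the others at 5402 to 5413 CPM.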

How the results depend on the processing

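The count of called respiratory chain genes was 2 with DESeq2, 4 at an adjusted p under 0.1 (Ndufv3, Ndufs8, Ndufs7 and Sdhd) and 0 to 4 with a library left out. The 4 came without wild-type replicate 3 (Ndufv3, Ndufs5, Ndufs7 and Sdhd), and the other 7 fits gave 0. The replicate numbers do not pair the libraries (correlations of same-numbered deviations 0.16, -0.04, 0.02 and -0.0028). With the replicate block the count of called members was 1, Ndufs5 (adjusted p 0.0420), and Ndufv3 had an adjusted p of 0.0649. Over all genes, 915 were called, 1002 with the block and 407 to 1727 with a library left out. Ckmt2 stayed called in every alternative run.

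Values near 0 changed sign, and the cause was not tested. The median log2 fold change over all tested genes was 0.018 with total counts only and -0.0018 in the main fit. With total counts only, log2 fold changes were 0.0065 for Cox6a2, 0.018 for Cox7a2, 0.00038 for Cox8b, 0.0034 for Cox4i2, 0.0015 for Cox4i1, 0.0051 for Cox6b1, 0.010 for Ndufa4l2, 0.0074 for Ndufa4, 0.00016 for Atp5g1 and 0.0034 for Uqcrc1. Cox7a2 was at 0.00078 with the stricter filter and 0.00051 with DESeq2. With a library left out, the log2 ranges were -0.028 to 0.0033 for Cox6a2, -0.023 to 0.017 for Cox7a2, -0.045 to 0.00082 for Cox8b, -0.064 to 0.014 for Cox4i2, -0.052 to 0.044 for Ndufa4l2, -0.023 to 0.00088 for Ndufa4 and -0.0065 to 0.074 for Ndufaf4. Log2 ratio differences ranged from -0.043 to 0.040 for Ndufa4l2 to Ndufa4, -0.043 to 0.043 for Cox4i2 to Cox4i1, -0.065 to 0.0029 for Cox7a1 to Cox7a2 and 0.28 to 0.95 for Cox6b2 to Cox6b1. Depth limits Cox6b2, Cox7b2 and Cox8c, the members with the fewest reads.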

Other observations

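Regulators of the nuclear respiratory genes and of mitochondrial DNA made up a list of 23 genes. EdgeR and DESeq2 called none of them and limma voom called 1, Esrrb, lower, with 8 at an unadjusted p under 0.05, of which 7 were lower in AE3-null. Over all tested genes 21.0% had such a p, and 11.2% had it and were lower. The genes named here were chosen after their values were seen. Polg, the mitochondrial DNA polymerase, was at 106, 107, 99.1 and 107 CPM in wild type and at 97.5, 92.9, 92.1 and 98.2 CPM in AE3-null, without overlap (log2 -0.14, edgeR adjusted p 0.0531). Yy1 was at 45.7 to 48.7 CPM in wild type and 42.1 to 43.8 CPM in AE3-null (log2 -0.14, edgeR adjusted p 0.0835). The nuclear receptor genes Esrrb and Esrrg had log2 fold changes of -0.21 (adjusted p 0.0560) and 0.13 (adjusted p 0.116) in edgeR. Perm1, a muscle regulator of mitochondrial genes, was at 529 to 639 CPM in wild type and at 525 to 546 CPM in AE3-null (log2 -0.15, edgeR adjusted p 0.0878). The coactivator gene Ppargc1a and the mitochondrial transcription factor gene Tfam had log2 fold changes of -0.03 (95% interval -0.27 to 0.21) and 0.04 (95% interval -0.05 to 0.14).

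Among assembly factors, Cox19 and Pet100 of complex IV had log2 fold changes of -0.21 and -0.23 (edgeR adjusted p 0.0534 and 0.0915). Vdac2, a channel of the outer mitochondrial membrane, was at 313 to 334 CPM in wild type and 336 to 363 CPM in AE3-null (log2 0.11, edgeR adjusted p 0.0759).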
